A study of Drosophila melanogaster with 4 samples.

Results

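Chromosome arm 2L of Drosophila melanogaster carried 922 of the 5331 regions called as enriched for histone H3 trimethylated at lysine 79 (H3K79me3) in the series-wide list. A region belonged to the set when that list placed it on 2L and named it enriched, and neither its width nor its score entered the choice. The arm is 23.01 Mb long in FlyBase release 5, the build named in the file headers, and its coordinates run from the telomere (distal) to the centromere (proximal). Whole larvae of the wild-type Oregon-R strain at the 3rd instar, taken from flies kept in population cages, were used, so each value is a mixture over all larval tissues. The antibody was a rabbit polyclonal raised against a peptide with the trimethylated residue (Abcam ab2621, lot 1). The labels list 4 samples, of which the 2 ChIP libraries have a region list each (868 regions on 2L in replicate 1 and 805 in replicate 2). The 2 input libraries contribute no value, as theirs were not analysed here, so no background was set beside the ChIP values. Whether the authors used the inputs when they called and scored the regions is unknown.

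H3K79me3 is laid down by the Dot1 methyltransferase, which is called grappa in flies. Lysine 79 lies on the outer face of the nucleosome core and not on the histone tail, and its methylation is generally found over the bodies of transcribed genes. In chromatin immunoprecipitation followed by sequencing, fragments bound by the antibody are sequenced and stretches with an excess of fragments are called as regions. A region list gives a position, a width and a score for each region. The score is the authors' own, has no stated unit, and is used here only to describe or rank regions within 1 list. No genome or gene annotation of release 5 was used, so no gene is named and no sequence is shown.

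H3K79me3 covered less than 25% of the arm, and most of the covered length lay on its distal side. After touching regions were joined, 5.13 Mb of 2L (22.3%) was covered in replicate 1 and 4.98 Mb (21.7%) in replicate 2. The mean was 22.0 ± 0.455% (SD, n = 2). The series-wide list covered more, 5.67 Mb or 24.7%. Counting from the telomere, 50% of the covered length was reached at 8.69 Mb in replicate 1, at 8.72 Mb in replicate 2 and at 8.74 Mb in the series-wide list. The first region began at 14425 in replicate 1 and at 14189 in replicate 2. The last one ended at 22961692 and 22961754, which left the final 49.9 kb and 49.8 kb of the arm without a region.

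The arm was cut at 11 Mb, a limit taken from earlier results on these data, so the values on its sides are a description and no test was made. Distal to 11 Mb, 28.9% of the sequence was covered in replicate 1 and 28.0% in replicate 2. Proximal to it, the shares were 16.3% and 15.9%. The distal share exceeded the proximal one by 12.4 ± 0.309 percentage points (SD, n = 2). The distal side therefore held 61.9% of the covered length in replicate 1 and 61.8% in replicate 2. Just inside the limit, the block from 10 to 11 Mb had 24.9% of its bases covered in replicate 1 and 24.4% in replicate 2. Just outside it, the block from 11 to 12 Mb was covered to 16.5% and 16.2%.

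**Figure D1:**
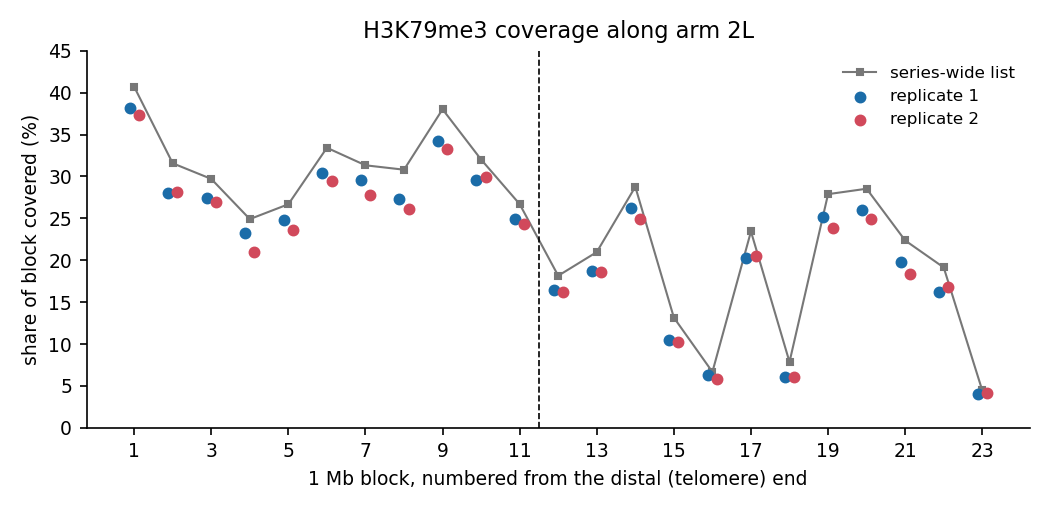
Share of each full 1 Mb block of 2L that was covered by H3K79me3 regions (vertical axis, percent), with blocks numbered from the distal end (horizontal axis). Points are the replicates, grey squares the series-wide list, and the dashed line marks 11 Mb. Means of the replicates run from 22.1 to 37.7% on the distal side and from 4.09 to 25.6% on the proximal side.

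The fall along the arm was not an even slope. Mean coverage went from 24.6% to 16.3% across the chosen limit at 11 Mb. Beyond it, sparse and well-covered blocks alternated, as the plot of coverage by block shows. Larger changes between neighbouring blocks lay there, such as from 25.6% to 10.3% at 14 Mb, so 11 Mb is not singled out as a step. The 11 distal blocks had means between 22.1 and 37.7%, with a median of 28.1%. The 12 full proximal blocks had means between 4.09 and 25.6%, with a median of 17.6%. Of these, 9 lay below the lowest distal block and 3 did not. Within the distal blocks, coverage hardly followed position, with Spearman's rho between block number and covered share at -0.0545 in replicate 1 and -0.0636 in replicate 2 (11 blocks). Within the 12 proximal blocks rho was -0.182 and -0.112, against -0.684 and -0.683 over all 23 blocks. Blocks are neighbours in the same libraries, and the limit was chosen with these data known, so these correlations are descriptions.

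The densest blocks were all distal. The block at the telomeric end, from 0 to 1 Mb, had a covered share of 38.1% in replicate 1 and 37.3% in replicate 2. Next came the blocks from 8 to 9 Mb (34.3 and 33.3%) and from 5 to 6 Mb (30.4 and 29.5%). The block from 8 to 9 Mb also held many regions, 61 in replicate 1 and 52 in replicate 2. The lowest distal block ran from 3 to 4 Mb and was covered to 23.3% and 20.98%. That block also had the largest difference between the replicates, 2.28 percentage points, while the median difference over the 23 blocks was 0.551 points. Replicate 1 was the higher in 17 blocks and replicate 2 in 6.

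The sparsest blocks lay beyond 15 Mb. The last full block towards the centromere, from 22 to 23 Mb, reached 3.98% in replicate 1 and 4.20% in replicate 2, with 16 and 18 regions. Where heterochromatin begins within the arm was not examined. The blocks from 15 to 16 Mb (6.33 and 5.81%) and from 17 to 18 Mb (6.08 and 6.10%) were almost as sparse, although they lie well away from the end of the arm. Between these, the block from 16 to 17 Mb was covered to 20.2% and 20.5%. Coverage was again 25.2% and 23.8% from 18 to 19 Mb, and 25.95% and 24.95% from 19 to 20 Mb. The best-covered proximal block ran from 13 to 14 Mb, at 26.2% and 24.9%. With the 4 proximal blocks below 13% set aside (from 14 to 15, 15 to 16, 17 to 18 and 22 to 23 Mb, chosen after their values were seen), the other 8 averaged 21.1% in replicate 1 and 20.5% in replicate 2. Those means still lay below the distal means of 28.9% and 28.0%.

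Fewer regions and narrower regions both entered the fall. The distal side held 45.1 regions per Mb in replicate 1 and 41.2 in replicate 2, and the proximal side 31.0 and 29.3. The ratio of distal to proximal was 1.43 ± 0.0358 (SD, n = 2). The mean width was 6402 bp distally and 5258 bp proximally in replicate 1, and 6798 bp and 5409 bp in replicate 2, a ratio of 1.24 ± 0.0278 (SD, n = 2). The score was also higher distally by its median, but having no stated unit it cannot be sized against these ratios. Its median was 0.932 distally and 0.856 proximally in replicate 1, and 0.882 and 0.803 in replicate 2. Across the 23 blocks, the covered share rose with the number of regions, with Spearman's rho of 0.725 and 0.800 in replicates 1 and 2. With their mean width rho was 0.709 and 0.748. The covered share of a block is close to the number of its regions times their mean width, so these correlations are largely built in. With the median score of the regions, rho was 0.0899 and 0.252.

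**Figure D2:**
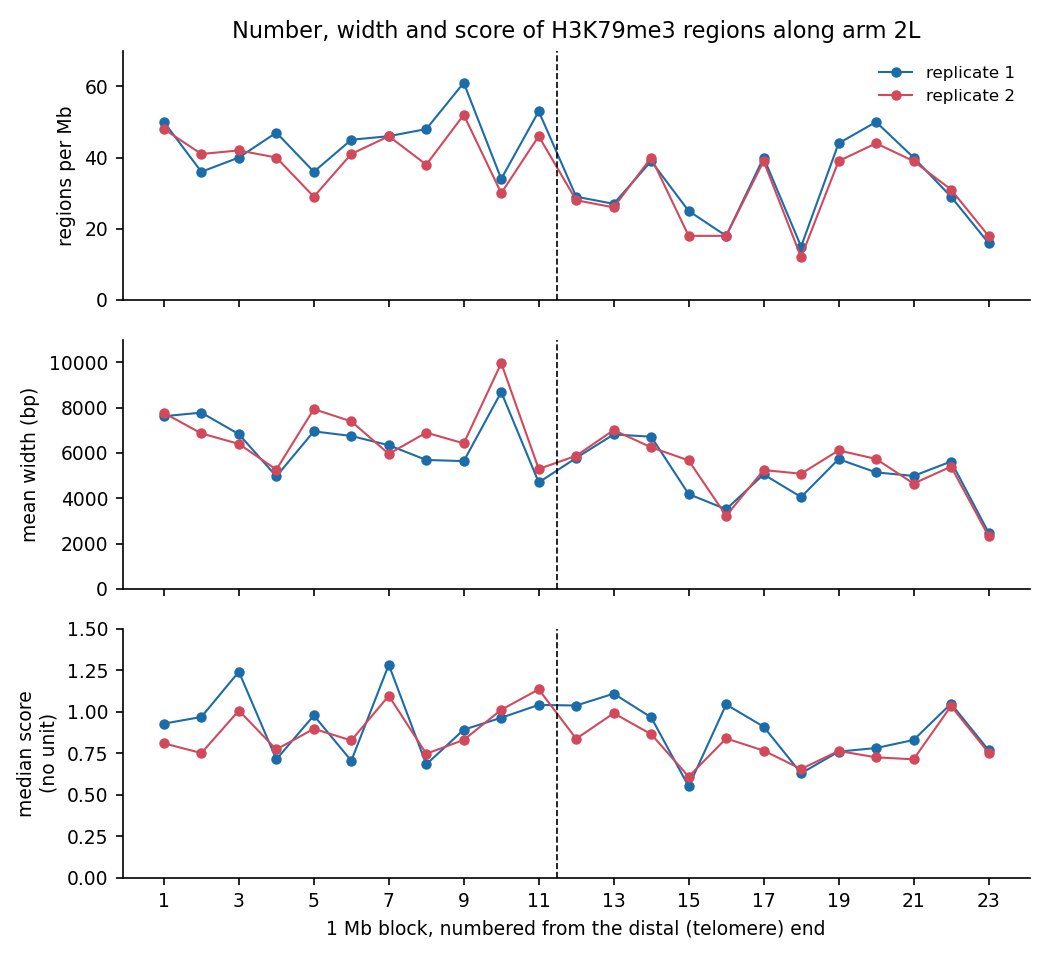
Number of regions per Mb, mean width in bp and median score (no unit) in each full 1 Mb block of 2L, numbered from the distal end, with 1 line per replicate and a dashed line at 11 Mb. The number of regions dropped to 15 in replicate 1 and 12 in replicate 2 in block 18, and the mean width to 2488 and 2334 bp in block 23. The median score was lowest in blocks 15 (0.550 and 0.609) and 18 (0.629 and 0.655), which are sparse, but stood at 1.04 and 0.839 in block 16, which is sparse too.

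From 5 kb upwards, wider classes of regions were more concentrated on the distal side. Regions of at least 20 kb numbered 31 on 2L in each replicate. Of these, 24 in replicate 1 and 23 in replicate 2 lay distal to 11 Mb, against 7 and 8 proximal to it. Per Mb this was a distal to proximal ratio of 3.44 ± 0.427 (SD, n = 2). The ratio was 1.97 ± 0.0563 for regions of 10 to 20 kb and 1.501 ± 0.0914 for regions of 5 to 10 kb. It was 1.24 ± 0.00886 for regions of 2 to 5 kb and 1.30 ± 0.130 for those under 2 kb (SD, n = 2 for each). Every width class was therefore denser distally, in both replicates.

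**Figure D3:**
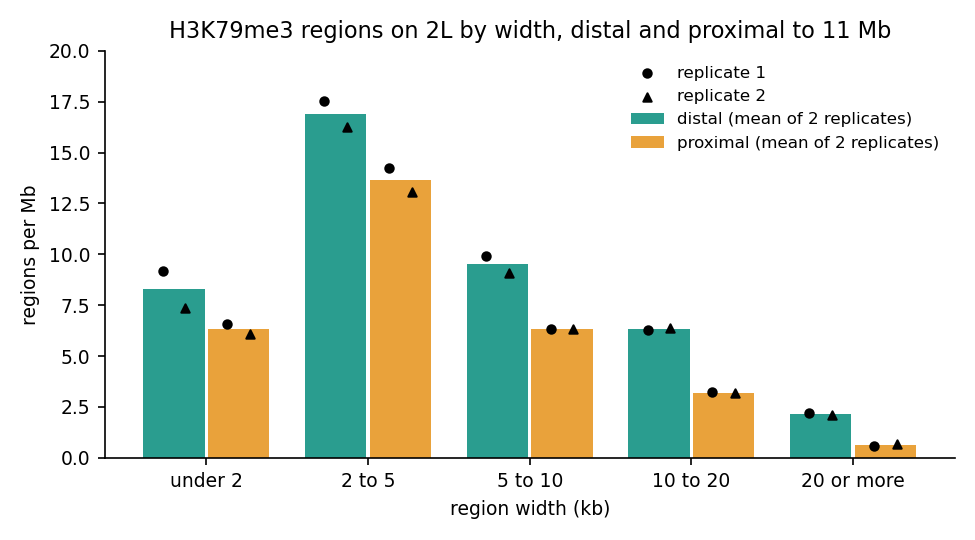
Regions per Mb (vertical axis) in 5 classes of width (horizontal axis, kb) on the distal and proximal sides of 11 Mb. Bars are means of the 2 replicates and symbols the replicates themselves. The class of at least 20 kb fell from 2.14 to 0.624 per Mb, and the class of 2 to 5 kb from 16.9 to 13.7 per Mb.

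Within a width class, scores from 5 kb upwards were somewhat higher distally in both replicates. Regions of 5 to 10 kb had a median score of 1.33 distally and 1.22 proximally in replicate 1, and of 1.21 and 1.12 in replicate 2. For regions of 2 to 5 kb the order was the other way, with 0.802 distally and 0.855 proximally in replicate 1, and 0.740 and 0.766 in replicate 2. Regions of 10 to 20 kb had medians of 1.54 distally and 1.46 proximally in replicate 1, and of 1.401 and 1.36 in replicate 2. For regions of at least 20 kb they were 1.81 and 1.68, and 1.701 and 1.54, with 7 and 8 proximal regions behind the proximal medians. In the series-wide list the order held for regions of at least 20 kb (1.65 distally and 1.51 proximally). It barely held for 5 to 10 kb (1.097 and 1.083) and did not hold for 10 to 20 kb (1.325 and 1.326).

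Most regions of the arm were a few kb wide, and a small number of wide ones held much of the covered length. In the series-wide list the width ran from 1001 to 57805 bp, with a median of 3565 bp and quartiles of 1968 and 7544 bp. The median was 3545 bp in replicate 1 and 3762 bp in replicate 2, with narrowest regions of 1308 and 1301 bp. Regions under 2 kb made up 25.7% of the series-wide regions but 6.26% of their length. The 40 regions of at least 20 kb were 4.34% of the 2L regions (95% Wilson interval 3.20 to 5.85%, counting error only), close to the 4.48% of the whole list, and held 20.8% of the length on 2L. Each of the 40 overlapped regions in both replicates, which covered at least 91.4% of it in replicate 1 and 90.4% in replicate 2. In each replicate, 25 of them were a single region and 15 were called in several pieces.

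Score and width rose together on the arm. Within the series-wide list the score ran from 0.0287 to 2.37, with a median of 0.677 and quartiles of 0.379 and 1.25. Spearman's rho between width and score was 0.800 across the 922 regions, 0.798 in replicate 1 and 0.791 in replicate 2, where regions of a library are not independent. The 231 lowest-scoring regions had a median width of 1641 bp and the 231 highest-scoring ones 8777 bp. Of the 40 wide regions, 36 were among the latter and 4 among the 230 below them. Width did not fix the score, since the 10 highest scores belonged to regions of 4.26 to 54.1 kb. Of the 2L regions, 74 (8.03%, Wilson interval 6.44 to 9.96%) were in the top 10% of the whole list by score, where 10.0% of all regions lie by construction. On the distal side this share was 11.02% (8.59 to 14.05%) and on the proximal side 4.35% (2.77 to 6.77%).

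The highest score on the arm belonged to a region of 12.4 kb from 5316554 to 5329002. It scored 2.37 in the series-wide list, where it ranked 13 among all regions, and was the highest on 2L in both replicates (2.56 in replicate 1 and 2.23 in replicate 2). The region from 10839054 to 10843308 followed with 2.13, and was the narrowest of the 10 highest. It ranked 5 on 2L in each replicate. The regions ranked 3 and 4 were wider, 28.1 kb from 9491394 to 9519480 (score 2.12) and 54.1 kb from 9164934 to 9219070 (2.11). The last of these was 1 region in replicate 2 and 3 pieces in replicate 1. The region ranked 8 (9221800 to 9244906, 23.1 kb, score 2.05) was its neighbour.

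The others among the 10 highest were spread over the arm. Near 6 Mb lay the regions from 6076194 to 6099702 (23.5 kb, score 2.06) and from 5990232 to 6001930 (11.7 kb, 2.03). Of the 10, 8 were distal to 11 Mb. The proximal ones ran from 13163000 to 13169388 (6.39 kb, score 2.05) and from 19490744 to 19497854 (7.11 kb, 2.04). All 10 overlapped a region in both replicates, which covered at least 94.0% of each in replicate 1 and 96.8% in replicate 2. Of these, 7 were among the 10 highest of replicate 1 on 2L and 9 among those of replicate 2. The exception in replicate 2 was the region from 2231190 to 2237668 (6.48 kb, series-wide score 2.08), which ranked 2 in replicate 1 with 2.36. In replicate 2 it had no region of its own, since a single region (score 1.65, rank 55) spanned it and part of the neighbouring series-wide region from 2212152 to 2231124. Those scores belong to different stretches and cannot be compared.

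The widest region was proximal, although wide regions were mostly distal. It ran from 12455988 to 12513792, spanned 57.8 kb with a score of 1.57, and was a single region in both replicates (57401 bp in replicate 1 and 57910 bp in replicate 2). The next widest were the region of 54.1 kb already described and 3 others on the distal side. These ran from 462928 to 510292 (47.4 kb, score 1.29), from 154530 to 201474 (46.9 kb, 1.84) and from 7932850 to 7978048 (45.2 kb, 1.45). The region at 462928 was called in 4 pieces in replicate 1 and 2 in replicate 2, and the one at 7932850 in 3 and 4. By score on 2L the 5 widest ranked 96, 4, 216, 31 and 147, so 1 of them was also among the 10 highest scores.

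Neighbouring regions were often close, and a few very long stretches made up much of the uncovered sequence. The median distance from the end of a region to the start of the next was 3541 bp in the series-wide list, 3845 bp in replicate 1 and 4656 bp in replicate 2. In the series-wide list 251 of 921 distances (27.3%) were under 1 kb. Joining regions less than 1 kb apart left 671 separate stretches, the longest of which spanned 91.2 kb from 12455988 to 12547192 and contained the widest region. Neither replicate had this whole stretch joined under the 1 kb rule, although both overlapped each of its 3 series-wide regions. In order of position, these were covered to 99.3, 77.7 and 99.3% in replicate 1 and to 99.99, 95.8 and 99.96% in replicate 2. The longest joined stretch was 61.2 kb in replicate 1, from 2855313 to 2916532, and 63.8 kb in replicate 2, from 12455994 to 12519832. At the other end, 40 distances exceeded 100 kb and together took 6.81 Mb, or 29.6% of the arm. In the replicates there were 43 and 46 of these, which took 33.5% and 34.4% of the arm.

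Spacing also changed along the arm. The median distance was 3253 bp distally and 4784 bp proximally in replicate 1, and 3828 bp and 5588 bp in replicate 2. The share of distances under 1 kb differed less, at 25.2% distally and 22.6% proximally in replicate 1, and 22.96% and 21.1% in replicate 2. Distances over 100 kb took 21.97% of the distal side and 44.0% of the proximal side in replicate 1, and 24.99% and 43.0% in replicate 2. Of the 100 kb windows, 6 of 110 distal ones (5.45%) and 29 of 120 proximal ones (24.2%) had no covered base in replicate 1. The counts in replicate 2 were 7 and 28. At the other extreme, 20 distal windows and 5 proximal ones were covered over at least 50% of their length, the same counts in each replicate.

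All of the 5 longest distances in the series-wide list lay beyond 11 Mb, and both replicates showed them with nearly the same ends. The longest in the series-wide list was 462 kb, from 16910899 to 17373335, and it measured 463 kb in replicate 1 and 465 kb in replicate 2. The next were 337 kb from 15911525 to 16248947 and 286 kb from 14689747 to 14976127. They were followed by 269 kb from 11528055 to 11796781 and 225 kb from 15504009 to 15728753. Replicate 1 ranked differently, since its stretch without a region between 21319362 and 21572839 was longer than the last of these. No replicate region lay inside any of the 5, and at most 105 bp of a flanking region reached into one. Together they took 1.58 Mb of the arm. The longest on the distal side was 183 kb, from 4614303 to 4797083. Whether reads can be placed uniquely across these stretches was not tested.

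Of the 922 regions, 685 overlapped a region in both replicates by at least 1 bp. This was 74.3% (Wilson interval 71.4 to 77.0%), near the 75.0% of the whole list. Replicate 1 was met by 761 regions (82.5%, against 83.8% of the whole list) and replicate 2 by 713 (77.3%, against 78.5%). Replicate 1 alone was met by 76 (8.24%, against 8.87%), replicate 2 alone by 28 (3.04%, against 3.51%), and neither by 133 (14.4%, interval 12.3 to 16.8%, against 12.6%). The 685 regions held 93.2% of the length on 2L. The replicate lists come from the libraries behind the series-wide list, so this overlap is not an independent check.

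**Figure D4:**
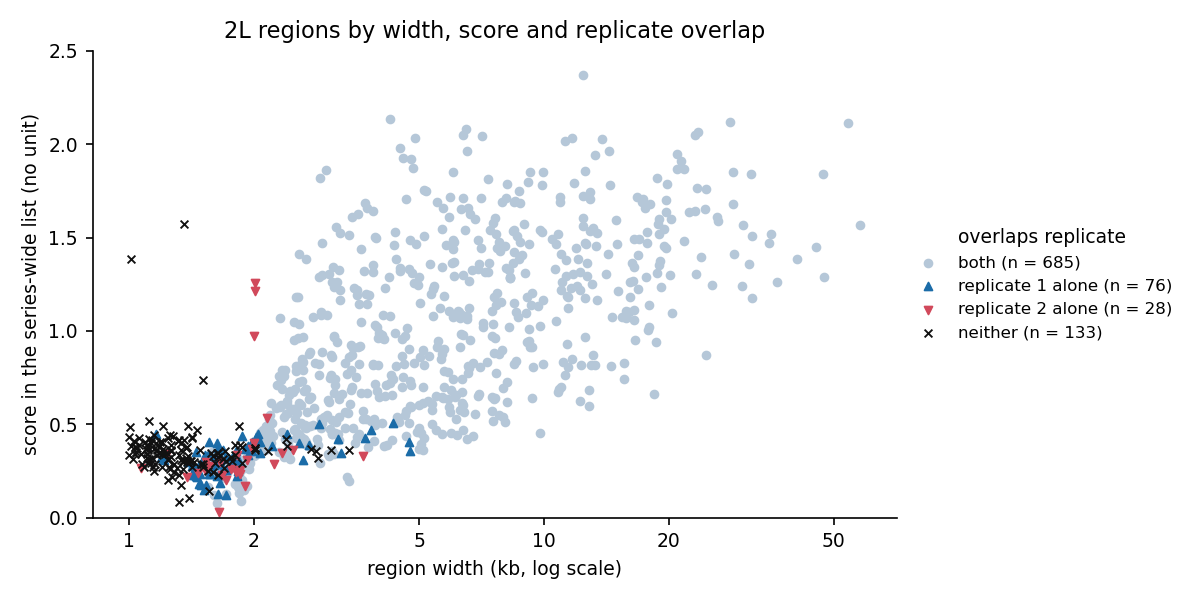
Width (horizontal axis, kb, log scale) and score in the series-wide list (vertical axis, no unit) of the 922 regions on 2L, with the symbol showing which replicates have an overlapping region. Regions that met neither replicate had a median score of 0.348 and lie at the lower left, apart from 3 above the 2L median of 0.677.

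Regions without a counterpart were narrow and mostly low-scoring, as the plot of width against score shows. Those meeting neither replicate had a median width of 1311 bp and reached at most 3393 bp. Their median score was 0.348, against 0.939 for regions met by both. Of the 231 lowest-scoring regions, 25.5% (interval 20.3 to 31.5%) met both replicates. The share was 74.3% (68.3 to 79.6%) in the next 230 by score, 98.7% (96.2 to 99.6%) in the 230 after those and 98.7% (96.3 to 99.6%) in the 231 highest. The series-wide list also held 70 regions on 2L (7.59%, against 7.97% of the whole list) that fell short of 1301 bp, the smallest width in a replicate list on any sequence. Of these 70, 65 were without a counterpart.

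On 2L 4.76 Mb was common to the replicates, or 92.8% of the bases of replicate 1 and 95.6% of those of replicate 2. The Jaccard index (bases in both lists over bases in at least 1) was 0.890. It was 0.904 distal to 11 Mb and 0.867 proximal to it. By regions, 777 of 868 in replicate 1 (89.5%, interval 87.3 to 91.4%) and 768 of 805 in replicate 2 (95.4%, 93.7 to 96.6%) overlapped the other replicate. The same values over all sequences were not computed, so whether 2L differs from the whole lists in this was not tested. Regions that met replicate 2 alone were 20 of 414 proximally (4.83%, interval 3.15 to 7.34%) and 8 of 508 distally (1.57%, 0.800 to 3.08%). The share over the whole list was 3.51%. Of the 20, 3 belong to the evenly spaced run between 21.4 and 21.56 Mb described further on. Regions that met replicate 1 alone were 33 proximally (7.97%) and 43 distally (8.46%), against 8.87% of the whole list. These intervals cover counting error, treat regions as independent, and are no test between libraries.

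Where a region of 1 replicate overlapped exactly 1 region of the other, their edges nearly coincided. In the 605 such pairs the starts differed by a median of 86 bp and the ends by 91 bp, and in 335 pairs (55.4%) both edges lay within 200 bp. Widths and scores kept their order between the replicates (Spearman's rho 0.962 for width and 0.959 for score, across pairs within the same 2 libraries). The score was the higher in replicate 1 in 484 of the 605 pairs, but the lists may be scaled differently, so this is not a difference in enrichment.

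A run of evenly spaced narrow regions on the proximal side was seen in 1 replicate and not in the other (chosen after its values were seen). In the series-wide list 4 regions of 1509 to 2009 bp began at 21464010, 21469050, 21474094 and 21479144, so their starts lay 5040, 5044 and 5050 bp apart. Another region began at 21539842, 60698 bp after the last of them. Their scores were 1.26, 1.21, 0.738, 0.974 and 1.57, all above the 2L median of 0.677. Replicate 2 had 3 of them, beginning at 21464014, 21469051 and 21479153, with scores of 1.496, 1.39 and 0.999. Replicate 1 had no region at all between 21319362 and 21572839. The regions at 21539842 and 21474094 met neither replicate, and they ranked 1 and 3 by score among the regions on 2L that did so. As background, 2L carries the tandemly repeated cluster of replication-dependent histone genes in its proximal part. Whether the run lies in that cluster, and how reads from repeats were placed, was not tested.

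Values of 2L were set beside those of 3L, 3R and the X, while 2R was not analysed here. Among these 4 arms the fall towards the centromere was largest on 2L in both replicates. The arms were cut at their middle for this purpose, and telomere and centromere sides were taken from the orientation of each arm. On 2L the distal side was covered to 28.1 ± 0.611% and the proximal side to 15.8 ± 0.298%, a difference of 12.3 ± 0.313 percentage points (SD, n = 2 in this and the next sentence). The difference was 4.26 ± 0.164 points on 3L, 1.63 ± 0.195 on the X and 0.721 ± 0.0487 on 3R. The distal sides were more alike than the proximal ones, at 26.0% on 3L, 24.2% on the X and 25.4% on 3R, while the proximal sides stood at 21.7%, 22.5% and 24.7%. These are 4 arms of the same 2 libraries, and no test of the difference between arms was made.

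**Figure D5:**
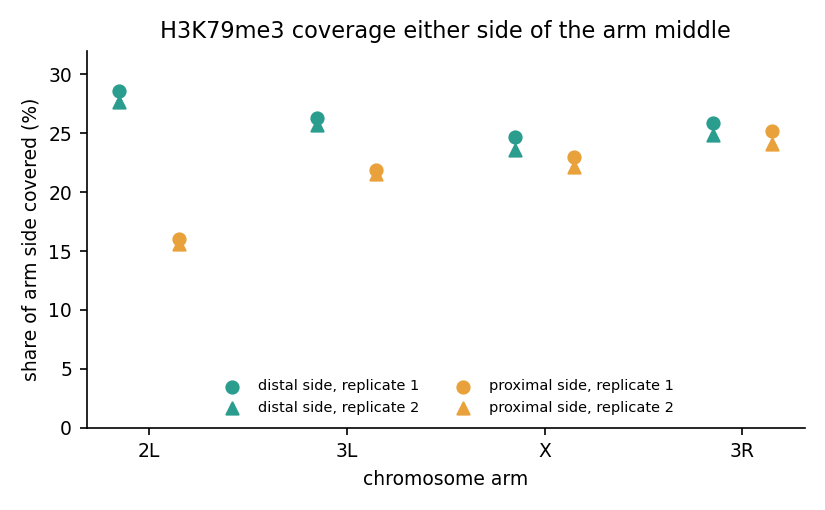
Share covered (vertical axis, percent) on the distal and proximal sides of the middle of 2L, 3L, X and 3R, with circles for replicate 1 and triangles for replicate 2. The proximal side of 2L stood at 16.1 and 15.6%, and every other value between 21.6 and 28.5%.

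On the proximal sides, 2L had 29.7 regions per Mb as the mean of the replicates, against 34.1 on 3L, 40.1 on the X and 41.7 on 3R. Their mean width was 5333 bp on 2L, 6377 bp on 3L, 5625 bp on the X and 5921 bp on 3R. Over whole arms the median score within replicate 1 was 0.904 on 2L, 0.906 on 3L, 0.916 on 3R and 1.05 on the X, and within replicate 2 it was 0.845, 0.857, 0.871 and 0.978 in the same order.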

How the data were processed

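ChIP-seq region lists of 2 ChIP libraries and a series-wide list were used. Reads were aligned with Bowtie 0.12.7, per the submitters' processing notes, and coordinates are on FlyBase release 5, 1-based, per the file headers. For the region caller and its threshold, the use of the input and the combination of replicates, the entry is the same: not given in the sources used here. The deposited score of each region has no stated unit. On 2L all starts and ends of the series-wide list are even numbers, which is not so in the replicate lists. Region lists hold no read counts, so depth is unknown, and Wilson intervals cover counting error only. Nothing in the labels says that the replicates came from separate larval collections, and an SD over them may measure technical spread.

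Overlapping or touching regions were joined before bases were counted. Regions were placed on a side of 11 Mb, or in a 1 Mb block, by their midpoint, and covered bases by position. Gene positions were not used, as the available table follows release 6. The regions named are the 10 highest scores, the 5 widest, the 5 longest distances, and the 3 densest and 3 sparsest blocks of 2L; any other region or block named was picked after seeing its values. The members, the limit at 11 Mb and the quantities were chosen with earlier results of these data known. No condition is compared, so no test was made. Depleted entries were left out. Work was done in Python 3.11.15 with pandas 2.3.3 and numpy 2.4.6, correlations with scipy 1.17.1 and plots with matplotlib 3.10.9. The interval code was tested on 20 simulated lists and equalled base-by-base counts in 20. As alternatives, values were recomputed from the 50% of regions with the highest scores, after joining of regions closer than 500 bp, from the series-wide list, from each replicate alone, and with other limits and overlap rules.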

Additional observations from a re-analysis of the deposited data

How the results depend on the processing

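The covered share stayed higher distally under all 11 settings tried for it, counting the main one. The difference was 10.8 points in the top 50% by score, 13.01 in the series-wide list, 11.4 with the limit at 12 Mb, 11.3 without the sequence beyond 22 Mb and 7.63 without the 4 sparsest proximal blocks (chosen after the data were seen), and 12.1 to 12.6 with 1 replicate left out. The covered share of 2L was 16.4% in the top 50% by score and 24.7% in the series-wide list, and 21.7 to 22.3% with 1 replicate left out. The ratio of regions per Mb was 1.60 in the top 50%, 1.39 with close regions joined, 1.34 in the series-wide list, 1.34 and 1.38 with limits at 10 and 12 Mb, and 1.37 without the sequence beyond 22 Mb (1.41 to 1.46 with 1 replicate left out). The ratio of mean widths was 1.27 with close regions joined, 1.27 in the series-wide list, 1.28 with the limit at 10 Mb and 1.20 without the sequence beyond 22 Mb (1.22 to 1.26 with 1 replicate left out). The Jaccard index was 0.863 in the top 50% and 0.892 with close regions joined. The share of regions met by both replicates was 79.4% in the top 50%, 77.6% with close regions joined and 80.4% for regions at least as wide as the narrowest replicate region; 77.3 to 82.5% met the remaining replicate when 1 was left out. The median score was 0.904 in replicate 1 and 0.845 in replicate 2, on scales that may differ. The median width was 3762 bp in replicate 2 and 4397 bp with close regions joined, and the median distance 4656 bp in replicate 2 and 5489 bp with close regions joined. The excess of 2L over 3L in the distal to proximal difference, 8.01 points, was 7.20 in the top 50% and 7.90 to 8.11 with 1 replicate left out. Of 47 values under alternatives other than leaving out a replicate, 18 were counted as unmoved and 29 as moved. The measure was the spread between replicates, a counting interval for the overlap share and the Jaccard index, or a fixed factor for counts. The interval of the Jaccard index treated bases as independent, so small shifts counted as moved. A reversal was looked for in the distal to proximal difference of covered share alone, and 0 were found. With 2 replicates, leaving 1 out moves a mean by less than the SD by construction, so those ranges say nothing of stability. No paired analysis was possible because the labels' replicate numbers pair ChIP with input libraries, whose values were not analysed here, and no test was made.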

Other observations

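The series-wide list names 2 depleted entries on 2L, from 12999356 to 13001014 (score -0.00736) and from 20924866 to 20926458 (score -0.00626). At the first, replicate 2 called an enriched region with a score of 0.333 and replicate 1 called none. At the second, replicate 1 called an enriched region with a score of 0.110 and replicate 2 called none.

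The scaffold 2LHet, 369 kb of heterochromatic sequence of this arm that release 5 keeps apart, held 3 enriched regions in each list. They covered 1.60% of it in replicate 1 and 1.83% in replicate 2, against 3.98% and 4.20% of the block from 22 to 23 Mb on 2L. The region with the highest score there in the series-wide list ran from 167414 to 169626 and scored 0.657, just below the 2L median of 0.677.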
